A study of Mus musculus with 6 samples.

Results

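The 43 genes described here encode the switch that couples nutrients and growth factors to cell growth. They are the TSC complex with its target Rheb, the subunits of mTORC1 and mTORC2, the Rag GTPases with Ragulator, the FLCN complex, GATOR1 and GATOR2, the PI3K and AKT axis, and downstream effectors with stress inputs. The rule lists the genes by name under these 8 groups and sets no threshold on a measured value. All 43 were among the 55487 genes in the tables, and all 43 passed the filter on low counts that left 16603 genes for testing. The lowest count of any of them in a library was 66 (Rragd).

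RNA-seq was done on 6 libraries of MEFs, which are fibroblasts cultured directly from mouse embryos. There were 3 knockout (KO) libraries, from passages 2, 3 and 4, and 3 wild-type (WT) libraries from the same passages, with 1 library for each genotype and passage. A passage is a round of detaching and replating the culture. All cultures were untreated and grown in ordinary culture, per the labels. The labels name neither the knocked-out gene nor its allele, strain or embryonic age, so the knockout itself was not checked here. By its title, the series belongs to work on mTORC1, the chemokine CCL24 with its receptor CCR3, and the granulomas of sarcoidosis. Genotype was taken from the library titles. A separate genotype tag reads WT for 2 of the KO-titled libraries, those of passages 3 and 4. The sources used here do not say whether the passages came from separate embryos or cultures, so p-values measure only the spread between these libraries. In the genotype test without a passage term, that spread includes the differences between passages, and the rest may be technical.

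As background, mTORC1 is a protein kinase complex on the lysosome surface that promotes protein synthesis and restrains autophagy. The TSC complex (Tsc1, Tsc2 and Tbc1d7) keeps the small GTPase Rheb inactive until AKT signalling relieves that brake. Amino acids act through the Rag GTPases, which Ragulator anchors to the lysosome, which GATOR1 and FLCN regulate as GTPase-activating proteins, and which bring mTORC1 to Rheb. This control runs largely through protein modification and location, which transcript levels do not measure.

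Library totals ran from 24853121 to 67760880 expected counts. On the first principal component of all genes tested (the axis of largest spread between libraries), the WT library of passage 4 lay at 16.5. The WT libraries of passages 2 and 3 lay at 43.3 and 48.7, and the KO libraries between -41.9 and -28.5. The WT library of passage 4 was thus nearest to KO over all genes, not only in the genes below. Genotype coincided with sex. Xist, which is transcribed from the inactive X chromosome, had 15654, 29034 and 17819 counts in the KO libraries of passages 2, 3 and 4, against 5, 12 and 5 counts in the WT libraries. The 4 Y-linked genes examined each had 643 or more counts in every WT library and at most 23 in any KO library. Knockout and sex therefore cannot be told apart in any comparison of KO with WT below. Fibroblast markers were abundant in all libraries, with summed levels of 21539 to 25635 CPM (TMM-scaled counts per fixed library size) in KO and 37904 to 49474 CPM in WT, and 5 of the 9 were lower in KO by the test used here. The other cell type markers called between genotypes numbered 1, the endothelial gene Flt1, which was lower in KO (-1.02 on the log2 scale, edgeR adjusted p = 0.0382). The rest of the endothelial list was not called and mostly went the other way. Pecam1 (0.67), Cdh5 (0.88), Kdr (0.55) and Emcn (0.81) had changes above 0, and Tek (-0.16) had a change below 0. With passage as a block, 5 of 13 macrophage markers were also called lower in KO (Csf1r, Adgre1, Ptprc, Itgam and Ctss, from -0.57 for Csf1r to -1.16 for Itgam). Under that block the epithelial marker Krt18 (1.18) and the muscle marker Des (0.64) were called higher. The other epithelial markers were not called under it. Of these, Epcam (0.60), Cdh1 (1.33), Krt8 (0.61) and Krt14 (0.12) lay above 0 and Krt5 (-0.47) lay below 0. The other muscle marker tested, Myh3, changed by -0.21 and was not called. The part of these markers in the results was not tested. Fewer cells of a type and less RNA per cell cannot be told apart in such bulk samples.

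All 8 groups of the pathway were transcribed in the fibroblasts of both genotypes. In TPM (a transcript level scaled for length), the mean over the 6 libraries ranged from 1.79 ± 0.752 for Rragd to 258 ± 37.6 for Akt1 (SD, n = 6), with a median of 24.9 over the 43 genes. Group medians ran from 11.6 TPM for GATOR2 and 15.9 TPM for GATOR1 to 57.4 TPM for the Rag and Ragulator genes and 59.4 TPM for the PI3K and AKT axis. Within mTORC1 and mTORC2, the subunit PRAS40 (Akt1s1) averaged 85.8 ± 18.2 TPM, against 15.3 ± 1.71 TPM for the kinase Mtor and 2.77 ± 0.716 TPM for the inhibitor Deptor. In GATOR2, Sec13, which also serves the COPII coat and the nuclear pore, averaged 192 ± 23.0 TPM, while Wdr59 averaged 10.4 ± 1.1 TPM.

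**Figure D1:**
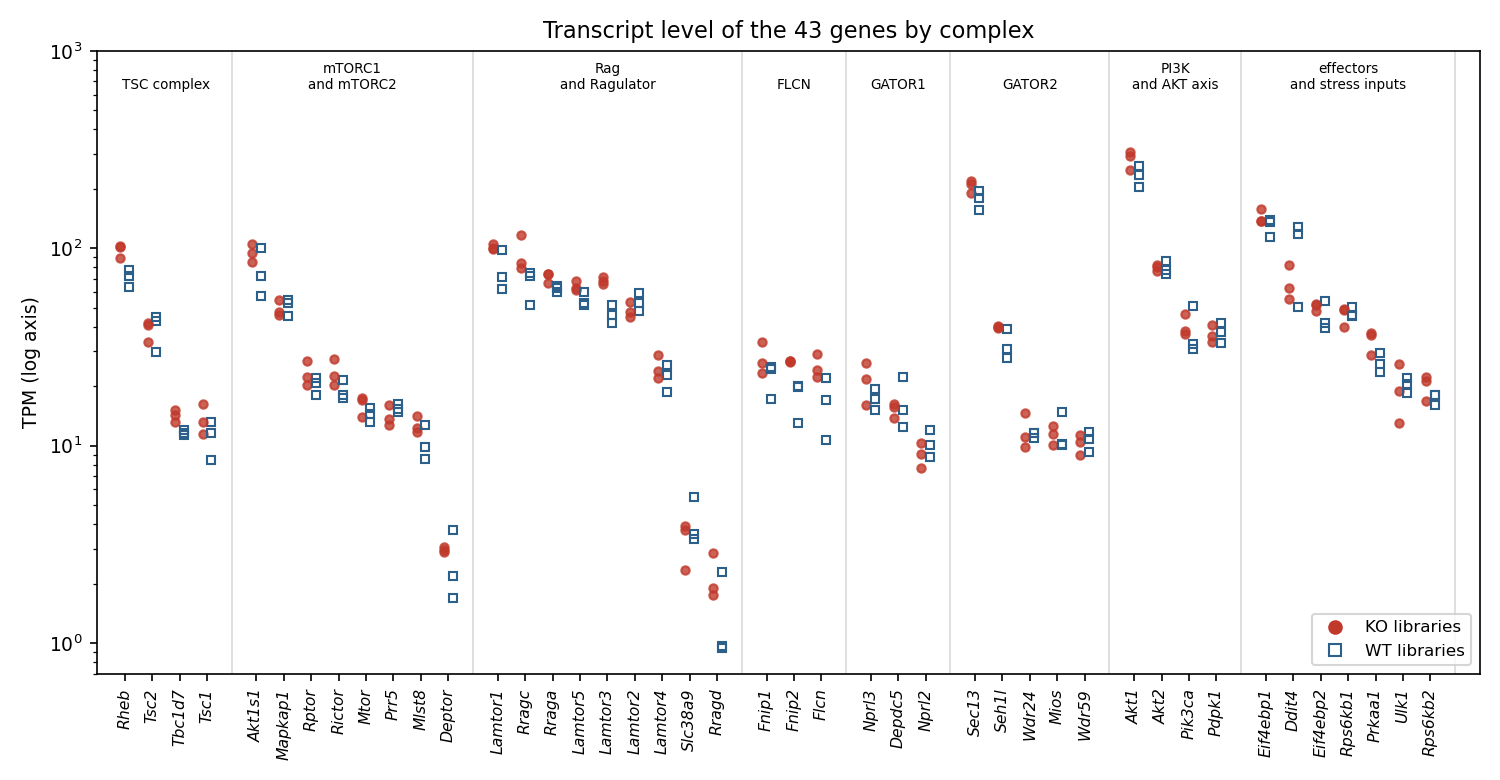
Transcript level in TPM on a log axis for each of the 43 genes, grouped by complex, with KO libraries as filled circles and WT libraries as open squares (3 libraries each). Akt1 and Sec13 lie at the top, and Deptor, Slc38a9 and Rragd lie lowest.

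The first comparison set KO against WT over the 3 passages. None of the 43 genes passed edgeR's quasi-likelihood test at a Benjamini-Hochberg adjusted p under 0.05, where 2.48% of all genes tested were called. At an unadjusted p under 0.05 there were 5 (Rheb, Rragc, Lamtor3, Fnip2 and Prkaa1), all higher in KO, against 21.3% of all genes. limma-voom also called 0 of the 43, where it called 2.82% of all genes, and limma on log2 TPM called 0. DESeq2 called 2 (Fnip2 and Lamtor3, both higher), where it called 1661 genes or 10% of all genes. With passage as a block, edgeR called 2, Fnip2 and Rragc, again both higher in KO, where 11.1% of all genes were called and 4.69% were called higher. The median change of the 43 genes was 0.08 on the log2 scale, against -0.01 over all genes tested, and 26 of the 43 lay above 0. That median was 0.03 without the WT library of passage 2, 0.05 without the KO library of passage 2 and 0.04 without both. On log2 TPM it was 0.19 and 0.20 with pseudocounts of 1 and 0.1, against 0.08 and 0.10 over all genes.

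**Figure D2:**
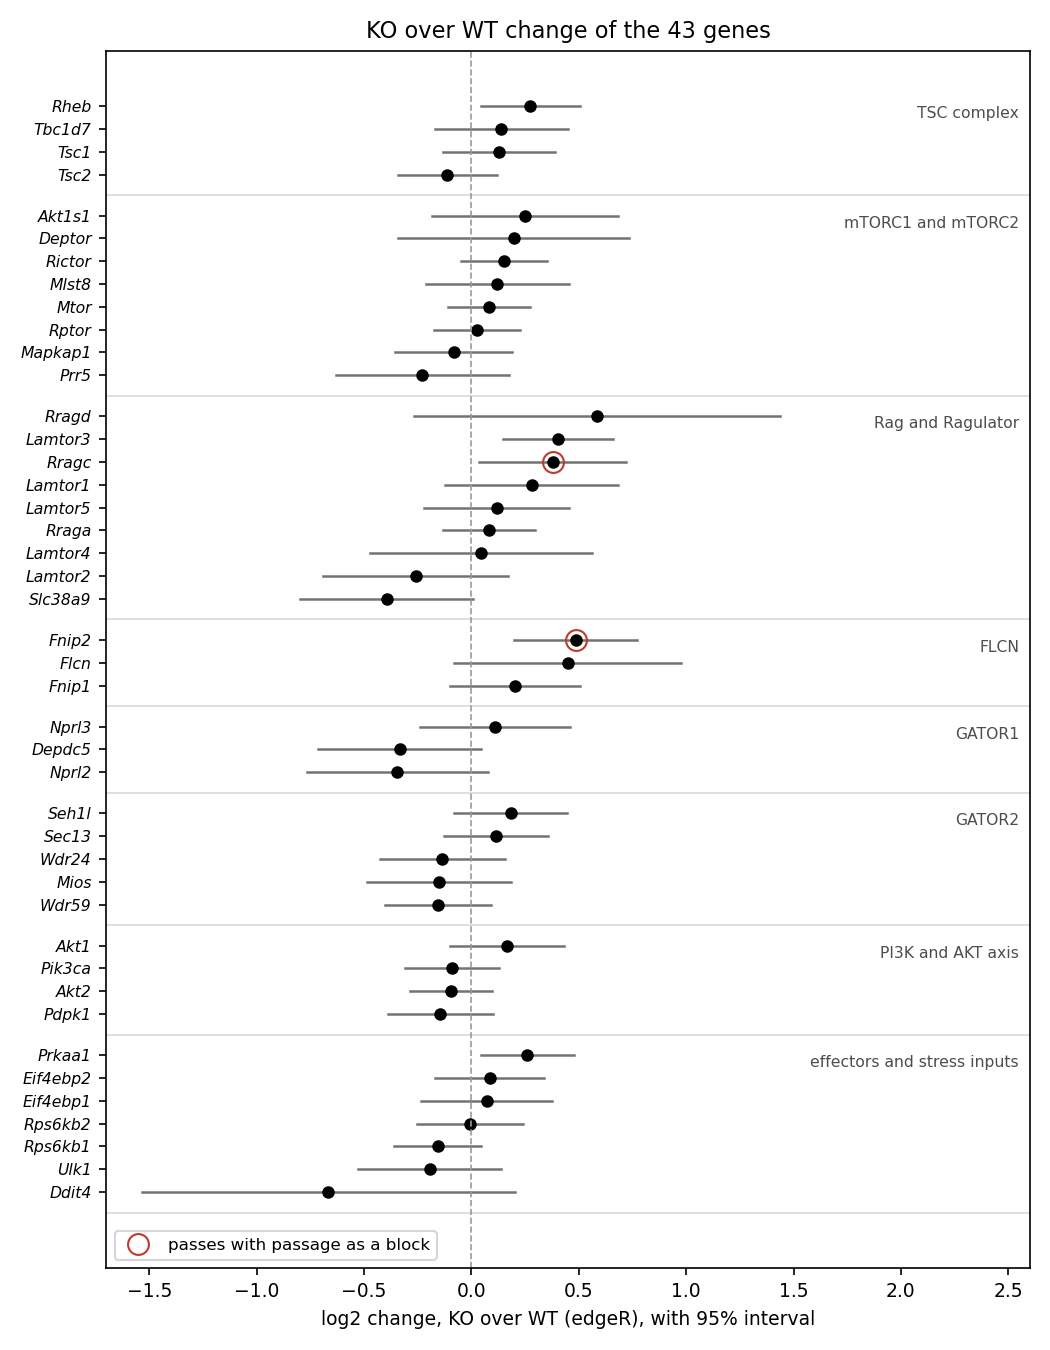
Log2 change of KO over WT from edgeR (horizontal axis) for each of the 43 genes, ordered within its group, with 95% intervals (3 libraries per genotype). Red rings mark Rragc and Fnip2, the genes called with passage as a block, and the widest interval belongs to Ddit4.

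In the TSC complex, Tsc1 (ENSMUSG00000026812, GRCm38 chromosome 2, 28641228 to 28691167, plus strand) encodes hamartin, the scaffold of the complex. It had 46.0, 49.0 and 50.5 CPM in KO at passages 2, 3 and 4, against 49.1, 39.2 and 44.7 CPM in WT. Tsc2 (ENSMUSG00000002496, chromosome 17, 24595816 to 24632630, minus strand) encodes tuberin, the GTPase-activating protein for Rheb. It had 82.1, 83.6 and 85.3 CPM in KO, against 87.4, 83.6 and 100.3 CPM in WT. The genotypes overlapped for both genes, and the log2 change was 0.13 ± 0.11 (SE) for Tsc1 and -0.11 ± 0.10 for Tsc2. The 95% intervals of these changes ran from -0.13 to 0.39 for Tsc1 and from -0.34 to 0.12 for Tsc2. Neither transcript was absent or low in a KO library. Counts and mean lengths of a whole gene cannot show whether a small part of it was deleted or altered, so the knockout remains unchecked. The mean transcript length of neither gene was called, with 6509 ± 346 bases in KO against 6743 ± 326 in WT for Tsc1 and 3964 ± 163 bases in KO against 3951 ± 313 in WT for Tsc2 (SD, n = 3 each).

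Rheb (ENSMUSG00000028945, chromosome 5, 24802823 to 24842624, minus strand), which binds and switches on mTORC1, had 81.1, 82.4 and 82.8 CPM in KO, against 62.1, 66.3 and 75.2 CPM in WT. Every KO library lay above every WT library. The change was 0.27 ± 0.10 on the log2 scale, a fold of 1.21, with an edgeR adjusted p of 0.17 (0.0887 with passage as a block). The third subunit, Tbc1d7, also had its 3 KO libraries above its 3 WT libraries (8.65, 9.11 and 8.49 CPM in KO, 7.38, 8.44 and 8.03 CPM in WT), with a change of 0.14 ± 0.13.

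None of the 8 subunit genes of the mTOR kinase complexes was called between genotypes by edgeR, and 0 of them had an unadjusted p under 0.05. Mtor (ENSMUSG00000028991, chromosome 4, 148448611 to 148557683, plus strand) had 69.0, 70.8 and 72.1 CPM in KO, against 66.7, 65.4 and 68.2 CPM in WT. Its log2 change was 0.08 ± 0.08, with a 95% interval from -0.11 to 0.27. Rptor, the raptor subunit that recruits mTORC1 substrates, had 70.6, 71.8 and 75.5 CPM in KO, against 70.2, 68.7 and 74.9 CPM in WT, and its interval ran from -0.17 to 0.23. Rictor, the defining subunit of mTORC2, had 105.0, 104.0 and 113 CPM in KO, against 96.9, 99.7 and 93.7 CPM in WT. For Mtor and Rictor the KO libraries lay above the WT libraries, and for Rptor they overlapped. Among the other subunits, Akt1s1 had 75.8, 77.6 and 80.4 CPM in KO, against 55.8, 53.8 and 87.3 CPM in WT. Its WT library of passage 4 stood above all KO libraries while the other WT libraries stood below them. Without that library its change was 0.52 with an edgeR adjusted p of 0.0341, against 0.25 and 0.491 with all libraries. The same omission raised the calls over all genes from 412 of 16603 to 847 of 17468. Prr5, a subunit of mTORC2, had 16.6, 12.8 and 10.9 CPM in KO, against 14.9, 17.2 and 15.1 CPM in WT. Its change was -0.23 ± 0.17, and within passages 2, 3 and 4 it was 0.16, -0.42 and -0.47. Deptor had a log2 change of 0.20 ± 0.23, with a 95% interval from -0.34 to 0.73.

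The Rag GTPases work as pairs of RagA or RagB with RagC or RagD. Rragc (ENSMUSG00000028646, chromosome 4, 123917446 to 123936997, plus strand), which encodes RagC, had 119.9, 113.7 and 138.7 CPM in KO, against 90.7, 81.3 and 114.6 CPM in WT. KO was higher at each passage, although the WT library of passage 4 reached the level of the lower KO libraries. The log2 change was 0.38 ± 0.15, a fold of 1.30. Within passages 2, 3 and 4 it was 0.40, 0.48 and 0.28. The edgeR adjusted p was 0.198 without and 0.0348 with passage as a block. Rraga, which encodes RagA, had 62.1, 62.9 and 58.4 CPM in KO, against 53.9, 60.5 and 59.0 CPM in WT, with overlapping genotypes.

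The promoters of Rragc and 3 other genes of this group are shown. Rragc, Lamtor1 and Lamtor4 are the genes of the group in which the motif CACGTG was found, and Rragd is shown as a gene without it. The motif was picked after values were seen. CACGTG, the core of the element bound by TFEB and TFE3 and also by MYC and other E-box factors, was searched on both strands in the 250 bases before the RefSeq start (GRCm38.p6). The motif is its own reverse complement. It was found in 6 of the 37 genes that have an entry (16.2%), namely Fnip1, Lamtor1, Lamtor4, Rheb, Rragc and Tbc1d7, and in 6.86% of all 27025 genes in the promoter table. The longer TCACGTG, which contains CACGTG, was in 5 of the 37 (13.5%), against 3.58% of all genes. The shares of all genes include genes that failed the filter on low counts here, which every member passed. Shares among the genes tested were not taken. Rragc holds CACGTG starting 112 bases before the start site (chr4:123917183-123917432, plus strand), Lamtor1 holds it 68 bases before (chr7:101905587-101905836, plus strand), and Lamtor4 holds copies 120 and 104 bases before (chr5:138255232-138255481, plus strand). The Rragd window (chr4:32982748-32982997, plus strand) holds no copy. The windows are shown 5′ to 3′ with CACGTG in capitals. A match is a description and not a binding site.
Rragc: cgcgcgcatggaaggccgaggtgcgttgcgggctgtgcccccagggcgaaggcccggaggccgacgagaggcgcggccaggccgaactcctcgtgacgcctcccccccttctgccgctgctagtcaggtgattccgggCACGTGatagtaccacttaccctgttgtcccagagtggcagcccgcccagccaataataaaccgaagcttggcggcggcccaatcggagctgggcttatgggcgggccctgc
Lamtor1: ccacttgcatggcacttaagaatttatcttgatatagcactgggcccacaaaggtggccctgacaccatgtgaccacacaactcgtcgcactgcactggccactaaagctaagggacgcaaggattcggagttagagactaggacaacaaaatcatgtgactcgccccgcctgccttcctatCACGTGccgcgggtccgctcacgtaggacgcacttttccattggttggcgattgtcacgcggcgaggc
Lamtor4: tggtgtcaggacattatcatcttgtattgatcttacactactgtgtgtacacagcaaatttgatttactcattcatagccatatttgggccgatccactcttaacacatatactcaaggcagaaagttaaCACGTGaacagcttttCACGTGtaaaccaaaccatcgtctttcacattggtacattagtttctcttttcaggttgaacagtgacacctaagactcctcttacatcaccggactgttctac
Rragd: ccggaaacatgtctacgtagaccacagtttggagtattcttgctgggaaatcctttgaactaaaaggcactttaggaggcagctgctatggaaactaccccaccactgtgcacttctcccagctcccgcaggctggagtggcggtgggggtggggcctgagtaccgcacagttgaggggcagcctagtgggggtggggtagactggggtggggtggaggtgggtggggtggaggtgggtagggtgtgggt

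The 5 Ragulator genes (Lamtor1 to Lamtor5) encode the scaffold that holds the Rag GTPases on the lysosome. Lamtor3 (ENSMUSG00000091512, chromosome 3, 137918506 to 137928900, plus strand) had 43.3, 40.3 and 42.3 CPM in KO, against 28.7, 31.2 and 35.2 CPM in WT. Its KO libraries lay above its WT libraries. The change was 0.40 ± 0.11 on the log2 scale with an edgeR adjusted p of 0.101, and 0.0503 with passage as a block. The other Ragulator genes overlapped between genotypes, with log2 changes from -0.26 (Lamtor2) to 0.28 (Lamtor1). Slc38a9, the lysosomal arginine sensor that signals to the Rag GTPases, had 6.42, 6.85 and 7.63 CPM in KO, against 11, 8.52 and 7.95 CPM in WT. All its KO libraries lay below its WT libraries, and its change of -0.39 ± 0.17 had an adjusted p of 0.242.

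Folliculin and its partners act on RagC and RagD as a GTPase-activating complex. Fnip2 (ENSMUSG00000061175, chromosome 3, 79455974 to 79567796, minus strand), which encodes a folliculin-interacting protein, had 84.6, 76.2 and 72.7 CPM in KO, against 60.9, 47.4 and 58.4 CPM in WT. Each KO library lay above each WT library. The log2 change was 0.49 ± 0.12 (95% interval 0.20 to 0.77), a fold of 1.40, and it was the smallest genotype p of the 43 genes. Within passages 2, 3 and 4 the log2 change was 0.47, 0.68 and 0.32. The edgeR adjusted p was 0.0858 without and 0.0272 with passage as a block. In TPM, Fnip2 averaged 26.8 ± 0.177 in KO and 17.6 ± 4.01 in WT.

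Flcn, which encodes folliculin, had 37.5, 37.4 and 42.9 CPM in KO, against 26.6, 20.5 and 39.4 CPM in WT. The WT library of passage 4 again lay among the KO libraries. The change was 0.45 ± 0.23 with an adjusted p of 0.306, and without that WT library it was 0.75 with an adjusted p of 0.0441. Calls over all genes rose from 412 of 16603 to 847 of 17468 with this omission. Fnip1, the paralogue of Fnip2, had 85.6, 88.7 and 104.2 CPM in KO, against 83.3, 68.9 and 89.7 CPM in WT. Its change of 0.20 ± 0.13 did not pass the test.

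**Figure D3:**
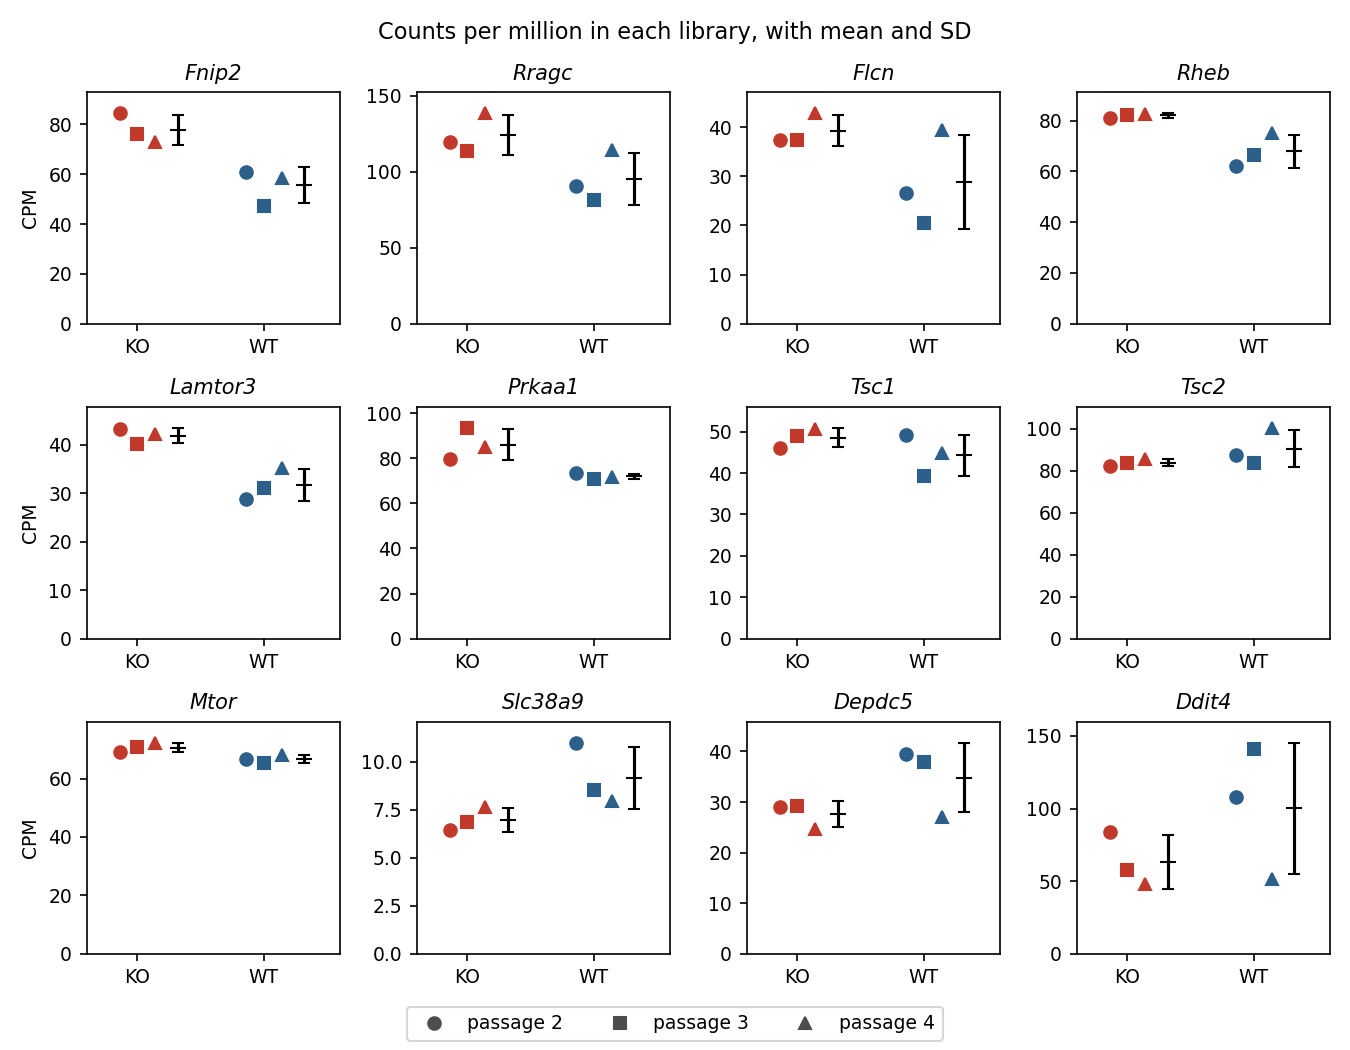
CPM (vertical axis, from 0) of 12 genes in each KO and WT library, with the marker shape giving the passage and the black bar the mean ± SD (3 libraries per genotype). Fnip2, Rheb, Lamtor3, Prkaa1 and Mtor have all KO libraries above all WT libraries, Slc38a9 has them below, and the remaining panels overlap.

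GATOR1 (Depdc5, Nprl2 and Nprl3) is the GTPase-activating complex for RagA and RagB. Depdc5 had 29.0, 29.2 and 24.7 CPM in KO, against 39.5, 38.0 and 27.0 CPM in WT. Nprl2 had 6.06, 6.46 and 6.93 CPM in KO, against 7.07, 10.1 and 7.53 CPM in WT. Their log2 changes were -0.33 ± 0.16 and -0.35 ± 0.18, with adjusted p of 0.292 for Depdc5 and 0.321 for Nprl2, and only Nprl2 had all KO libraries below all WT libraries. Nprl3 had 13.3, 16 and 17.9 CPM in KO, against 13.1, 14.7 and 16.1 CPM in WT. GATOR2, which counteracts GATOR1, had changes from -0.15 (Wdr59) to 0.18 (Seh1l), and the libraries of all 5 genes overlapped between genotypes.

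In the PI3K and AKT axis, Akt1 had 345.7, 369.1 and 360.5 CPM in KO, against 292.3, 300.9 and 364.6 CPM in WT. Akt2 had 115.8, 112.6 and 107.6 CPM in KO, against 119.5, 119.3 and 119.7 CPM in WT. For Akt1 the WT library of passage 4 was as high as the KO libraries, and for Akt2 every KO library lay below every WT library. The log2 changes were 0.17 ± 0.11 and -0.09 ± 0.08. The catalytic subunit Pik3ca (-0.09 ± 0.09) and the AKT-activating kinase Pdpk1 (-0.14 ± 0.10) also lay close to 0.

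Among effectors and stress inputs, Prkaa1, a catalytic subunit of the energy sensor AMPK, had 79.7, 93.4 and 85.2 CPM in KO, against 73.3, 70.8 and 71.9 CPM in WT. All KO libraries lay above all WT libraries, and the change of 0.26 ± 0.09 had an adjusted p of 0.169. Rps6kb1, which encodes the S6 kinase S6K1, had 77.7, 79.1 and 79.5 CPM in KO, against 87.4, 93.2 and 82.7 CPM in WT. Its KO libraries lay below its WT libraries, with a change of -0.16 ± 0.09. Ddit4, which encodes REDD1, a stress-induced inhibitor of mTORC1, had 84.0, 57.9 and 47.8 CPM in KO, against 107.8, 140.8 and 51.7 CPM in WT. Its values spread more than those of the other genes, and its change of -0.67 ± 0.37 had a 95% interval from -1.53 to 0.20.

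In CPM, 7 of the 43 genes had all KO libraries above all WT libraries (Tbc1d7, Rheb, Mtor, Rictor, Lamtor3, Fnip2 and Prkaa1), where 13.1% of all genes did. There were 4 with all KO libraries below all WT libraries in CPM (Slc38a9, Nprl2, Akt2 and Rps6kb1), where 14.1% of all genes did. These shares are near those of all genes. The separation depended on the scale. In TPM, Tbc1d7, Rheb, Lamtor3 and Fnip2 kept it. Mtor, Rictor, Prkaa1, Slc38a9, Nprl2, Akt2 and Rps6kb1 overlapped between genotypes in TPM.

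The second comparison asked how the genes changed from passage 2 to passage 4, fitted as a linear slope across both genotypes. Of the 43 genes, 1 was called by edgeR at an adjusted p under 0.05, where 6.25% of all genes tested were called and 3.48% were called falling. That gene was Rragd (ENSMUSG00000028278, chromosome 4, 32983037 to 33022180, plus strand), which encodes RagD, the partner of RagA or RagB that is known as a target of TFEB and related factors. It had 8.40, 4.97 and 4.23 CPM in KO at passages 2, 3 and 4, and 5.72, 3.18 and 2.73 CPM in WT. Its level fell at each step in both genotypes, by 0.52 ± 0.11 on the log2 scale per passage (adjusted p = 0.0339). The slopes were -0.50 in KO and -0.55 in WT. Rragd was also the least abundant of the 43 genes. The call was lost in 5 of the 6 fits that left out 1 library (adjusted p between 0.0669 and 0.224), with slopes between -0.59 and -0.46. It was kept without the WT library of passage 3. On log2 TPM the slope was -0.47 with a pseudocount of 0.1 and -0.31 with a pseudocount of 1, with adjusted p of 0.138 and 0.106 from limma.

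Macrophage markers moved with passage in the same libraries. All 13 of 13 fell with passage, none was at 0 in any library, and their summed level was 317, 104 and 49.98 CPM in KO and 441, 242 and 67.5 CPM in WT at passages 2, 3 and 4. Of the other lists, 2 of 6 endothelial, 3 of 6 epithelial, 2 of 5 muscle and 2 of 5 neural markers fell. Only 2 of the 5 muscle markers, Des and Myh3, passed the filter on low counts and were tested, and both fell. Myod1, Myog, Ckm, Myh3 and Cdh1 were at 0 in at least 1 library. The part of these cells in the fall of Rragd was not tested.

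Other genes of the pathway had low passage p-values without being called by edgeR. Ulk1, the kinase that starts autophagy and that mTORC1 inhibits, had 37.8, 44.8 and 53.3 CPM in KO, and 47.1, 52.3 and 56.1 CPM in WT. Its CPM was higher at each later passage in both genotypes, with a slope of 0.19 ± 0.05 and an adjusted p of 0.0941 in edgeR. DESeq2, which called 10.3% of all genes for passage, called it. Nprl3 was likewise higher at each step, with a slope of 0.18 ± 0.06 (adjusted p = 0.159). Deptor, an inhibitor of mTOR, had 14.7, 13.7 and 13.0 CPM in KO and 16.2, 11.5 and 8.28 CPM in WT, lower at each step in both, with a slope of -0.28 ± 0.10 (adjusted p = 0.144). The nucleoporin and GATOR2 subunit Seh1l had a slope of -0.13 ± 0.05 (adjusted p = 0.204). Ddit4 had a slope of -0.46 ± 0.17 and an adjusted p of 0.187 in edgeR, and it was called by DESeq2 and on log2 TPM. In CPM, 3 genes were lower at each step in both genotypes (Rragd, Deptor and Seh1l), where 8.91% of all genes were. There were 4 that were higher at each step in both in CPM (Rheb, Nprl3, Wdr24 and Ulk1), where 9.47% of all genes were. In TPM, only Rragd of all these genes kept its course. The WT level in TPM of each of the 4 rising genes was lowest at passage 3. The median slope of the 43 genes was 0.02, against 0.00 over all genes.

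**Figure D4:**
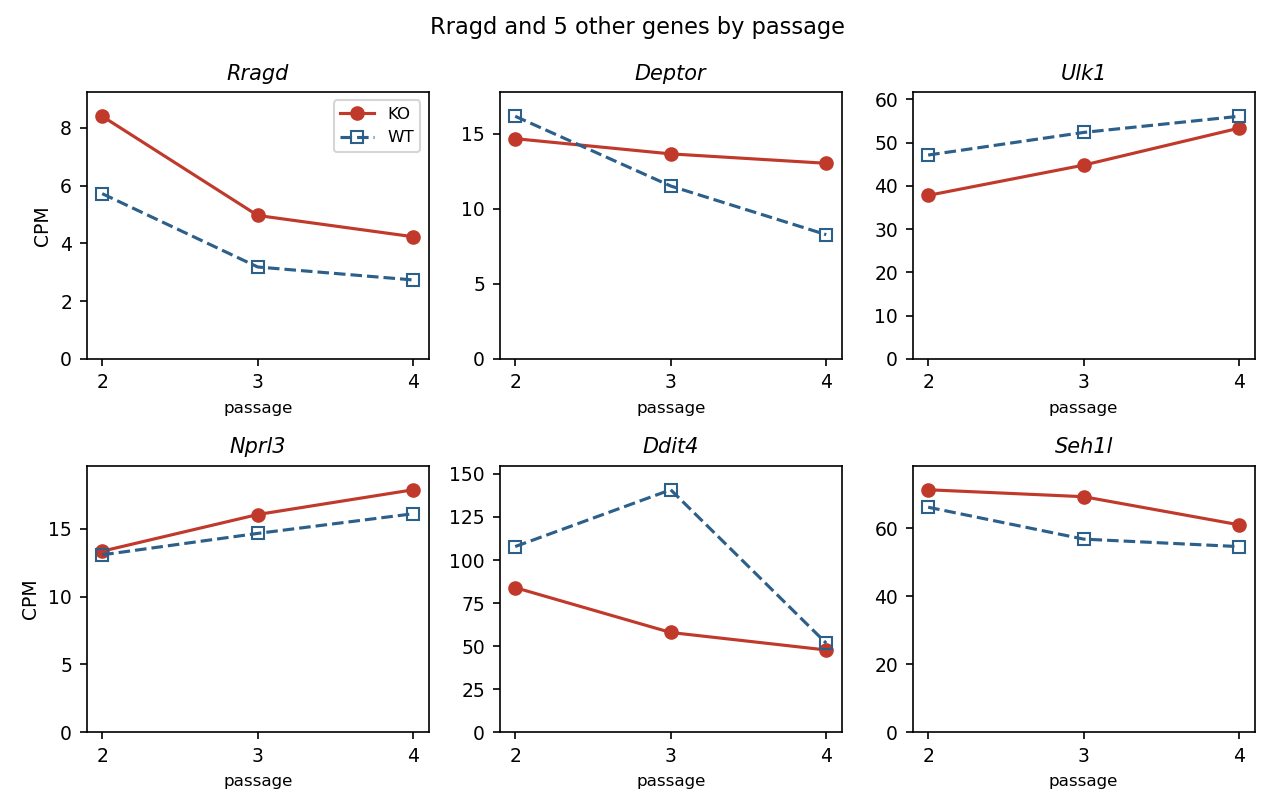
CPM (vertical axis, from 0) against passage for Rragd, Deptor, Ulk1, Nprl3, Ddit4 and Seh1l, with KO as filled circles and solid lines and WT as open squares and dashed lines (1 library per point). Rragd falls at each step in both genotypes, while the Ddit4 value of WT peaks at passage 3.

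The third comparison asked whether the slope per passage differed between KO and WT. edgeR called 0 of the 43 genes and 0 of the 16603 genes, and 5 of the 43 had an unadjusted p under 0.05, against 6.85% of all genes. DESeq2 called 0 of the 43 and 82 genes in all (0.494%), and limma-voom called 0 of the 43. The 5 genes were Lamtor1, Lamtor4, Lamtor5, Eif4ebp1 and Deptor. With 2 residual degrees of freedom the test has little precision.

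Lamtor1 had 63.2, 60.1 and 54.1 CPM in KO at passages 2, 3 and 4, and 40.6, 43 and 62.7 CPM in WT. Lamtor4 had 13.9, 10.5 and 9.0 CPM in KO, and 8.16, 11.9 and 12.3 CPM in WT. Lamtor5 had 26.9, 22.6 and 20.7 CPM in KO, and 18.7, 22.2 and 23.8 CPM in WT. For each of these in CPM, KO was the higher genotype at passage 2 and WT was the higher at passage 4. In CPM, KO declined at each step while WT increased at each step. In TPM, Lamtor4 kept this course, but the genotypes did not cross for Lamtor1 and Lamtor5. Lamtor1 had 99.59, 104.51 and 100.33 TPM in KO, and 71.1, 62.45 and 98.3 TPM in WT. Lamtor5 had 67.99, 62.76 and 61.75 TPM in KO, and 52.53, 51.63 and 59.69 TPM in WT. Lamtor2, with 17.3, 14.5 and 12.7 CPM in KO and 14.3, 21.3 and 17.6 CPM in WT, also crossed over. Lamtor3 did not cross.

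The difference of slopes, KO minus WT, was -0.42 ± 0.12 for Lamtor1, -0.61 ± 0.16 for Lamtor4 and -0.36 ± 0.12 for Lamtor5 on the log2 scale per passage, with adjusted p from 0.574 to 0.622. It was -0.38 for Lamtor2 and -0.16 for Lamtor3, so that all 5 Ragulator genes had the same sign. The sign was the same for all 5 in every alternative fit except the fit without the WT library of passage 2, where 4 of 5 were negative. None was called in any of them. The alternatives reuse the same libraries, so they are not independent of each other. The median of the 5 was -0.38 in the main fit and -0.19 on both log2 TPM scales. On those scales the median over all genes was 0.15 with a pseudocount of 1 and 0.19 with a pseudocount of 0.1. Eif4ebp1, which encodes a repressor of the cap-binding protein eIF4E, had 100.1, 79.0 and 74.0 CPM in KO and 76.6, 77.8 and 86.5 CPM in WT, with a difference of slopes of -0.31 ± 0.10 (adjusted p = 0.655). Deptor differed the other way, by 0.40 ± 0.13 (adjusted p = 0.619), since it declined more in WT. In CPM, KO declined and WT increased at each step in 4 of the 43 genes (Lamtor1, Lamtor4, Lamtor5 and Eif4ebp1). Of all genes, 2.98% had that course in CPM. In TPM, only Lamtor4 of these kept it. Slc38a9 alone of the 43 had the opposite course in CPM, where 3.04% of all genes did. The genes with this course were singled out after their values were seen.

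**Figure D5:**
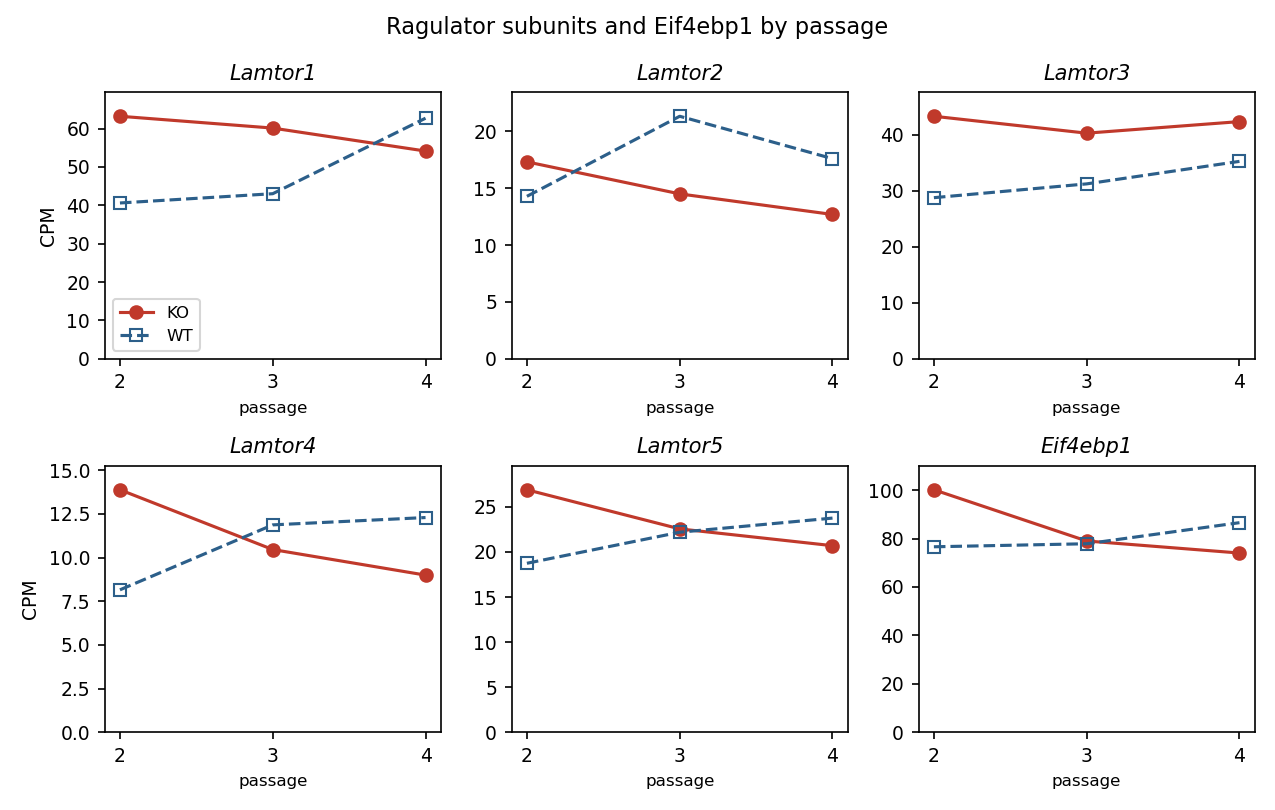
CPM (vertical axis, from 0) against passage for Lamtor1 to Lamtor5 and Eif4ebp1, with KO as filled circles and solid lines and WT as open squares and dashed lines (1 library per point). The KO and WT lines cross for Lamtor1, Lamtor2, Lamtor4, Lamtor5 and Eif4ebp1 and stay apart for Lamtor3.

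Ratios between related genes were taken in TPM within each library for 8 pairs. Rps6kb1 to Rps6kb2, the 2 S6 kinase genes, was 2.39, 2.31 and 2.19 in KO, against 2.79, 2.85 and 2.53 in WT. Tsc1 to Tsc2 was 0.344, 0.323 and 0.385 in KO, against 0.310, 0.285 and 0.258 in WT. These were the pairs whose genotypes did not overlap, and each reached p = 0.1 in a 2-sided exact permutation test, the smallest that 3 against 3 allows. Taken in CPM, without length, the Tsc1 to Tsc2 ratio overlapped between genotypes (exact p = 0.2). Akt1 to Akt2 averaged 3.55 ± 0.266 in KO and 2.95 ± 0.374 in WT (exact p = 0.2, SD, n = 3 each). Fnip2 to Fnip1 averaged 0.996 ± 0.183 in KO and 0.789 ± 0.0292 in WT (exact p = 0.3). Rragd to Rragc averaged 0.0246 ± 0.0107 in KO and 0.0210 ± 0.00974 in WT, so that RagC transcripts far outnumbered RagD transcripts in both. Over the 8 pairs the adjusted p ran from 0.32 to 1. Antisense neighbours overlap 23.7% of the exon bases of Rps6kb2, and strand handling is unknown, so its ratio is uncertain. The same holds for Mlst8 (22.5%), Lamtor1 (18.7%) and Nprl3 (17.7%).

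Transcript length, the abundance-weighted mean over isoforms, varied between libraries for 40 of the 43 genes. limma called 0 of these 40 at an adjusted p under 0.05, where 0.0309% of the 12935 genes tested were called. The smallest p was that of Akt1s1, with 1544, 1577 and 1573 bases in KO and 1488, 1513 and 1507 bases in WT. Its KO libraries were all longer, with an unadjusted p of 0.0119 and an adjusted p of 0.843.

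A further 58 genes of mTOR signalling outside the 43 were read from the same fits. Between genotypes 1 was called, where 2.48% of all genes were. Phlpp1, which encodes a phosphatase that inactivates AKT, had 39.7, 51.6 and 47.1 CPM in KO, against 28.4, 26.4 and 30.3 CPM in WT. It rose by 0.70 ± 0.13 in KO (adjusted p = 0.0361), and its KO libraries lay above its WT libraries. The call was lost in 4 of the 6 fits without 1 library, namely without the KO library of passage 3 or 4 or the WT library of passage 2 or 3, where its change ran from 0.61 to 0.70 and its adjusted p from 0.0826 to 0.210. With passage as a block 6 of the 58 were called, where 11.1% of all genes were. Phlpp1 and the cap-binding protein gene Eif4e (0.41) were higher in KO, and the sestrin genes Sesn1 (-0.64) and Sesn3 (-0.79), the RagA-directed ubiquitin ligase gene Rnf152 (-1.34) and the autophagy kinase gene Ulk2 (-0.47) were lower.

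With passage, 4 of the 58 rose and 3 fell, where 6.25% of all genes were called and 3.48% were called falling. Those that rose were Lpin1 (0.56 ± 0.08 on the log2 scale per passage), Ddit4l (0.56 ± 0.12), Sesn3 (0.37 ± 0.07) and Irs1 (0.34 ± 0.07). Sesn3 had 37.8, 53.2 and 76.8 CPM in KO and 78.9, 93.9 and 109 CPM in WT, higher at each step in both. Those that fell were Rnf152 (-1.11 ± 0.18), the kinase gene Rps6ka3 (-0.34 ± 0.06) and the insulin receptor substrate gene Irs2 (-0.28 ± 0.05). Antisense genes overlap 30.9% of the exon bases of Irs1. Leaving out 1 library gave between 0 calls (without the KO library of passage 4) and 9 calls (without the WT library of passage 3), with 1 without the KO library of passage 2, 4 without the KO library of passage 3, 1 without the WT library of passage 2 and 2 without the WT library of passage 4.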

How the data were processed

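Total RNA from 6 MEF libraries was sequenced. Trimmomatic 0.39, RSEM and build GRCm38 are the tools and genome that the submitters' processing notes list. Not given in the sources used here are the RSEM version, the alignment settings, the annotation and the strand setting. The deposited tables of the authors hold RSEM expected counts (estimated counts in which ambiguous reads are shared out, so that 12.0% to 15.8% of values were not whole), TPM values scaled by RSEM for length and library, FPKM values that were not used, and transcript lengths. Because strand handling is unknown, overlapping antisense genes cannot be separated. Of the genes in the tables, 99.5% matched GENCODE M21 and took symbols and coordinates from it; the rest held 0.442% to 0.683% of the counts.

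The main test was edgeR 4.0.16's quasi-likelihood test in R 4.3.3 (TMM, robust, 2-sided) on rounded expected counts, after a filter on low counts (minimum count 10 by genotype), with Benjamini-Hochberg adjustment over all genes tested and calls at an adjusted p under 0.05. Residual degrees of freedom were 4 for genotype (its only term), 3 for the passage slope (genotype as covariate) and 2 for the difference of slopes. Transcript lengths were tested with limma 3.58.1 on the log2 scale, and ratios of TPM with exact permutation tests (scipy 1.17.1). DESeq2 1.42.0, limma-voom, log2(TPM + 1), log2(TPM + 0.1), other filters, length offsets, the genotype tag and leaving out libraries were alternatives. Scripts were tested on simulated data.

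Passage number was also tried as a block. Deviations from the group means correlated between same-passage libraries at 0.488, 0.137 and 0.416 for passages 2, 3 and 4, all above 0.1, and passage is a shared label, so blocked values of the genes named are printed where they change a call.

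The members and lists were chosen with earlier results of these data known. Genes named were Tsc1, Tsc2, Rheb, Mtor and Rptor, called members, the smallest genotype and passage p of each group, genes of the ratios, and called or leading pathway genes; further members, and the promoter motif, were picked after seeing values. Ddit3 was left out because its symbol matches 2 gene IDs. Sequence sharing was measured as the percentage of 64-base words also present in transcripts of other genes; the most for a member was 11.3% (Lamtor5). A count of 0 allows up to 3 counts, a limit that covers counting error only. The 95% intervals of log2 changes come from the edgeR fits and include the spread between libraries.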

Additional observations from a re-analysis of the deposited data

How the results depend on the processing

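No called value of the 43 genes reversed under an alternative. Between genotypes the 43 genes gave 0 calls, with 2 under DESeq2, 1 without a filter (Fnip2), 2 with passage as a block and 0 to 2 when 1 library was left out. The block changed no other call of the 43 genes. The 58 other mTOR genes gave 1 call, with 7 under DESeq2, 6 with the block, 0 by the genotype tag, 0 on log2(TPM + 0.1), 0 on log2(TPM + 1), 0 without the passage 2 libraries, and 0 to 3 when 1 library was left out. Over all genes there were 412 calls, 155 higher and 257 lower in KO, with 1661 under DESeq2, 846 without a filter, 1835 with the block, 0 by the genotype tag (1 library against 5, the lone library being assumed to vary like the others), 59 without the passage 2 libraries, and 38 (without the KO library of passage 3) to 847 (without the WT library of passage 4) when 1 library was left out, each of the 6 omissions moving the count by more than 1.5 times. On log2(TPM + 1) the split was 219 higher and 168 lower, and on log2(TPM + 0.1) it was 239 and 164. The TPM scale with the smaller pseudocount shifted the median change of all genes by 0.116, and both TPM scales shifted the median difference of slopes by 0.139 to 0.177. The causes were not tested.

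For passage, the 43 genes gave 1 call, with 3 under DESeq2 (Rragd, Ddit4 and Ulk1), 3 without a filter (Rragd, Ddit4 and Deptor), and 0 to 2 when 1 library was left out. On TPM the call was Ddit4 (-0.45 and -0.44) in place of Rragd. The 58 other genes gave 7 calls, and 0 to 9 when 1 library was left out. All genes gave 1038 calls, with 1709 under DESeq2, 2443 without a filter, and 278 to 1286 when 1 library was left out. The difference of slopes gave 0 calls over all genes, with 82 under DESeq2, 289 without a filter, 10 on log2(TPM + 0.1), 2 on log2(TPM + 1) and 0 to 10 when 1 library was left out. The log2 ratio of Rps6kb1 to Rps6kb2 differed by -0.24 in TPM and by -0.15 in CPM without length. Uncalled values of the 43 genes changed sign in 32 of 688 alternative genotype values, 49 of 559 passage values and 68 of 559 differences of slopes; Fnip1 reached -0.03 between genotypes. Transcript length gave 0 calls in every alternative. With 3 libraries per genotype, changes as small as those of most of these genes may be missed.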

Other observations

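Genes that TFEB and TFE3 control, which mTORC1 restrains, were read from the same fits. The 3 factors themselves did not pass the test between genotypes. Tfeb had 2.67, 3.11 and 2.35 CPM in KO, against 4.49, 5.89 and 2.57 CPM in WT, a log2 change of -0.67 ± 0.32 (SE) with an edgeR adjusted p of 0.276. Tfe3 changed by 0.07 ± 0.10 and Mitf by -0.15 ± 0.11. Of 20 axis genes outside the 43, 0 were called between genotypes by edgeR and 5 had an unadjusted p under 0.05, where 21.3% of all genes had one. With passage as a block 5 were called, 4 higher in KO and 1 lower, where 11.1% of all genes were called and 4.69% were called higher. The higher ones were the lysosomal glycoprotein gene Gpnmb (0.44), the alpha-galactosidase gene Gla (0.56), the proton pump subunit gene Atp6v1h (0.51) and the autophagy gene Uvrag (0.40). The lower one was the autophagy gene Wipi1, with 70.8, 83.1 and 93.3 CPM in KO against 129, 147 and 117 CPM in WT (-0.67, adjusted p = 0.0191 with the block and 0.0504 without it). With passage, Ctsd, which encodes cathepsin D, rose by 0.25 ± 0.05 per passage and Uvrag by 0.24 ± 0.06. Other genes share 31.8% of the sequence words of Ctsd, so its count is uncertain.

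Of 10 amino acid stress genes outside the 43, edgeR called 0 between genotypes (1 at an unadjusted p under 0.05) and 0 with passage (2 at an unadjusted p under 0.05). Slc7a11, which encodes the cystine transporter, had 43.1, 43.4 and 61.3 CPM in KO, against 31.4, 24.5 and 35.5 CPM in WT. Its KO libraries lay above its WT libraries, and it was called with passage as a block (0.69, adjusted p = 0.0135) and not without it (adjusted p = 0.103). Atf4, the transcription factor of this response, had a change of 0.01 ± 0.17.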
